A study of Mus musculus with 10 samples.

Results

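The genes described here are the sugar and monocarboxylate transporters of the Slc2a, Slc5a and Slc16a families in glomeruli of the mouse kidney, the capillary tufts that filter the blood. They were taken by symbol, as every gene whose name starts with Slc2a, Slc5a or Slc16a. This gave 39 of the 22053 genes in the table: 12 Slc2a, 13 Slc5a and 14 Slc16a genes. RNA-seq of glomeruli compared 5 wild-type libraries with 5 libraries from mice carrying p.G799R in Col4a3, which encodes the alpha 3 chain of the collagen IV network of the glomerular basement membrane. No source used here gives the age, sex, strain or zygosity of the mice or how glomeruli were isolated. Whether each library is a different mouse is likewise unstated, and the p-values therefore measure only the spread between libraries, which may be technical. Values are FPKM, fragments scaled to transcript length and library size, so levels can be compared between genes.

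Slc2a genes encode the GLUT proteins, which let glucose, fructose, urate or inositol pass down their gradients. Slc5a genes encode sodium-coupled carriers, which use the sodium gradient to take up glucose (the SGLT proteins), inositol, lactate or vitamins. Slc16a genes encode the MCT proteins, some of which move lactate and pyruvate together with protons, while others carry aromatic amino acids or creatine. In the kidney the proximal tubule takes filtered glucose and lactate back from the urine, with sodium-coupled carriers on the side of the urine and GLUT2 on the side of the blood. Podocytes and mesangial cells of the glomerulus take up glucose through facilitative GLUT carriers. From this background 15 members were placed in the tubule, 4 (Slc2a1, Slc2a3, Slc2a4 and Slc2a8) in glomerular cells, and 20 in neither.

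The labelled tissue carried its defining markers, with a podocyte score, the mean log2(FPKM + 1) of 16 markers, of 6.75 to 6.95 in wild type and 7.29 to 7.60 in G799R. Proximal tubule markers were present as well, and their level moved with genotype. The score of 25 such genes was 6.69 to 7.44 in wild type and 3.86 to 4.76 in G799R, and all 25 were called lower. Their summed share of a library's FPKM was 2.28% to 4.31% in wild type and 0.290% to 0.775% in G799R. Of 20 markers of the distal tubule and collecting duct 19 were called lower. For both lists this compares with 19.3% of all tested genes called lower. The summed FPKM of the 20 markers was 1396 to 2033 in wild type and 185 to 548 in G799R. No marker of these lists was at 0 in every library. In bulk libraries fewer cells of a type and less RNA per cell cannot be told apart. The part of these markers in the differences of the tubule members was not tested beyond the scalings given below.

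Of the 39 members 33 had a mean of at least 0.5 FPKM and were tested with limma on log2(FPKM + 1), with Benjamini-Hochberg adjustment over all 13117 genes tested. Log2 differences are given as G799R minus wild type on this scale, which understates the change of low genes, and folds are ratios of mean FPKM. Among the 33 tested members 26 were called lower and 3 higher at an adjusted p under 0.05, and 4 were not called. Of all tested genes 59.8% were called, 19.3% lower and 40.5% higher. The median log2 difference was −1.36 for the members and 0.17 for all tested genes. All G799R libraries lay below all wild-type libraries for 23 members and above them for 2, against 15.7% and 26.1% of all tested genes. By family, 9 of 9 tested Slc5a genes, 12 of 13 Slc16a genes and 5 of 11 Slc2a genes were lower.

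The call depended on what a library was scaled to. Beside FPKM as deposited, values were scaled so that libraries had equal median levels of 43 podocyte, endothelial and mesangial markers (glomerular marker scaling) or of the 25 proximal tubule markers (proximal tubule marker scaling). Median-of-ratios scaling used the 12993 tested genes above 0 in every library. It called 23.3% of all tested genes higher and 25.5% lower, and of the members 2 higher and 26 lower. The median of all genes moved from 0.17 as deposited to 0.02 under median-of-ratios scaling, −0.43 under glomerular marker scaling and 2.62 under proximal tubule marker scaling. Glomerular marker scaling left 29 members lower and 1 higher, where 66.7% and 4.06% of all genes were called. Under proximal tubule marker scaling 1 member was lower and 21 higher, where 0.267% and 94.9% of all genes were called. Every member called lower in FPKM as deposited was also called lower under median-of-ratios scaling, quantile normalisation and glomerular marker scaling.

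The 6 members under the filter were at most at 0.121 FPKM in any library, far below the lowest tested member, Slc5a9, with a mean of 1.68. These were Slc16a8, Slc2a7, Slc5a4a, Slc5a4b, Slc5a5 and Slc5a7. Slc5a4b, a near copy of Slc5a4a, was listed at 0 in all 10 libraries. Slc5a9 itself passed through its wild-type values, since its G799R mean was 0.473.

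**Figure D1:**
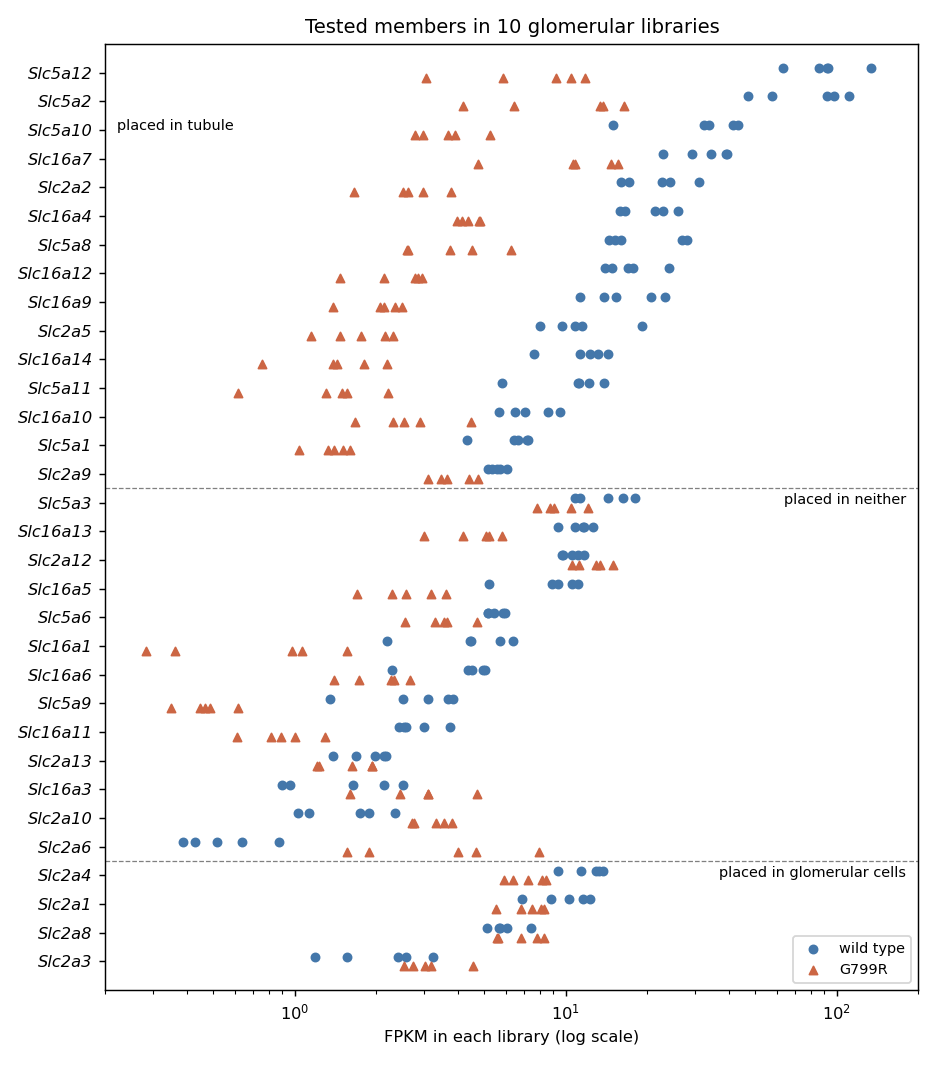
FPKM of 32 tested members in each library on a log axis, with circles for wild type and triangles for G799R, ordered within each placement by the wild-type mean. All 15 members placed in the tubule have every triangle left of every circle, while the 4 placed in glomerular cells overlap except Slc2a4.

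All 15 tubule members were called lower in FPKM as deposited, against 19.3% of all tested genes. All were lower without overlap between groups, against 15.7% of all tested genes, and their median log2 difference was −2.26. The range ran from −3.46 for Slc5a12 to −0.44 for Slc2a9. These directions also held under median-of-ratios, quantile and glomerular marker scaling. Under proximal tubule marker scaling 1 of the 15 was lower, 5 were higher and 9 were not called. Of all genes 0.267% were lower and 94.9% higher under that scaling.

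The sodium-coupled carriers Slc5a12, Slc5a2 and Slc5a10 had the lowest log2 differences of the members. Slc5a12 encodes SMCT2, the low-affinity sodium lactate carrier of the early proximal tubule, and lies on chromosome 2 at 110597298 to 110647779. It stood at 63.2, 93.1, 85.9, 134 and 92.3 FPKM in wild-type libraries 1 to 5 and at 11.7, 10.5, 5.84, 9.22 and 3.05 FPKM in G799R libraries 1 to 5. It had the highest mean level of the 39 genes in wild type and ranked 6 in G799R. The log2 difference was −3.46 ± 0.30 (SE; limma adjusted p = 4.6e-06). The same member was the only one still called lower with proximal tubule markers set equal, at −0.76 ± 0.27 (SE) and an adjusted p of 0.0071. That call was kept in all 11 fits that left out a library or G799R libraries 3 and 4 together, at −0.88 to −0.63 with adjusted p-values of 0.0052 to 0.037. Under that scaling 94.9% of all genes were called higher and 0.267% lower, so the adjustment raised p only a little.

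Slc5a2 encodes SGLT2, which takes up most filtered glucose in the early proximal tubule and is the target of the gliflozin drugs. Its gene lies on chromosome 7 at 128265657 to 128272430. Wild-type libraries 1 to 5 had 98.0, 57.6, 47.0, 92.2 and 111 FPKM, and G799R libraries 1 to 5 had 13.3, 16.4, 6.42, 13.7 and 4.16 FPKM. Every G799R library was below every wild-type library, and libraries 3 and 5 were the lowest of the G799R group, as they were for Slc5a12. The log2 difference was −2.87 ± 0.35 (SE; limma adjusted p = 4.8e-05), and −0.15 with proximal tubule markers set equal, where it was not called (adjusted p = 0.62). Slc5a1 encodes SGLT1, which takes up the remaining glucose in the late proximal tubule. It was lower by 4.65-fold, at 6.38 ± 1.21 FPKM in wild type and 1.37 ± 0.218 FPKM in G799R (SD, n = 5 each).

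Slc5a10 encodes SGLT5, a carrier of mannose and fructose. It stood at 14.9 FPKM in wild-type library 1, at 32.3 to 43.1 FPKM in the other 4 and at 2.78 to 5.26 FPKM in G799R. Its fall of 8.90-fold had a log2 difference of −2.79 ± 0.25 (SE; limma adjusted p = 6.5e-06). Slc5a11, which encodes the inositol carrier SMIT2, had 5.83 to 13.9 FPKM in wild type and 0.617 to 2.21 FPKM in G799R. Slc5a8 encodes SMCT1, the high-affinity sodium lactate carrier, and fell by 5.09-fold, from 20.1 ± 6.72 to 3.94 ± 1.53 FPKM (SD, n = 5 each). None of these 3 was called with proximal tubule markers set equal, at −0.23, −0.08 and 0.44.

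Members of the blood side and of other tubule segments fell by different amounts. Slc2a2 encodes GLUT2, through which reabsorbed glucose leaves the tubule cell, on chromosome 3 at 28697903 to 28731359. It stood at 16.0, 22.7, 17.1, 31.1 and 24.2 FPKM in wild-type libraries 1 to 5 and at 2.96, 3.77, 2.51, 2.62 and 1.65 FPKM in G799R libraries 1 to 5. Every wild-type library was above every G799R library, and library 5 was again the lowest of its group. The log2 difference was −2.64 ± 0.19 (SE; limma adjusted p = 2.2e-06), and −0.17 with proximal tubule markers set equal, where it was not called. Slc2a5, which encodes the fructose carrier GLUT5, fell by 6.71-fold, from 11.8 ± 4.28 to 1.76 ± 0.477 FPKM (SD, n = 5 each).

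Slc2a9 encodes a urate carrier of the tubule and had the smallest fall of the 15. Wild-type libraries held 5.18 to 6.08 FPKM (median 5.56) and G799R libraries 3.11 to 4.73 FPKM (median 3.65). The groups did not overlap, with a log2 difference of −0.44 ± 0.10 (SE; limma adjusted p = 0.0032). With proximal tubule markers set equal it was higher by 1.87 (adjusted p = 5.5e-10), below the median of 2.62 for all genes under that scaling.

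Among the Slc16a genes placed in the tubule, Slc16a9, Slc16a14 and Slc16a12 fell by 8.10-fold, 7.77-fold and 7.19-fold. Slc16a12 encodes a creatine carrier and stood at 14.0 to 24.0 FPKM in wild type against 1.46 to 2.95 FPKM in G799R. These 3 were not called with proximal tubule markers set equal, at −0.12, −0.13 and −0.01. Slc16a4 was at 15.9 to 25.9 FPKM in wild type and 3.97 to 4.81 FPKM in G799R, the narrowest G799R range among the 15 as a share of its mean.

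Slc16a7 and Slc16a10 fell less. Slc16a7 encodes MCT2, a high-affinity lactate and pyruvate carrier, and had 22.8, 29.2, 34.3, 39.1 and 39.4 FPKM in wild-type libraries 1 to 5. In G799R libraries 1 to 5 it had 10.8, 14.7, 10.6, 4.73 and 15.5 FPKM. Here library 5 was the highest of its group and library 4 the lowest, whereas Slc5a12 and Slc5a2 were lowest in library 5. The score of the distal tubule and collecting duct markers was 3.33, 3.10, 3.25, 2.05 and 2.84 in G799R libraries 1 to 5. It was lowest in library 4, as Slc16a7 was, but next lowest in library 5, where Slc16a7 was highest. A link between this score and Slc16a7 was not tested. The log2 difference of Slc16a7 was −1.53 ± 0.26 (SE; limma adjusted p = 0.00053). Slc16a10, which encodes TAT1, a carrier of aromatic amino acids, fell by 2.69-fold. With proximal tubule markers set equal, Slc16a7 and Slc16a10 were higher by 1.16 and 1.12, and Slc16a4 and Slc5a1 by 0.60 and 0.48.

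**Figure D2:**
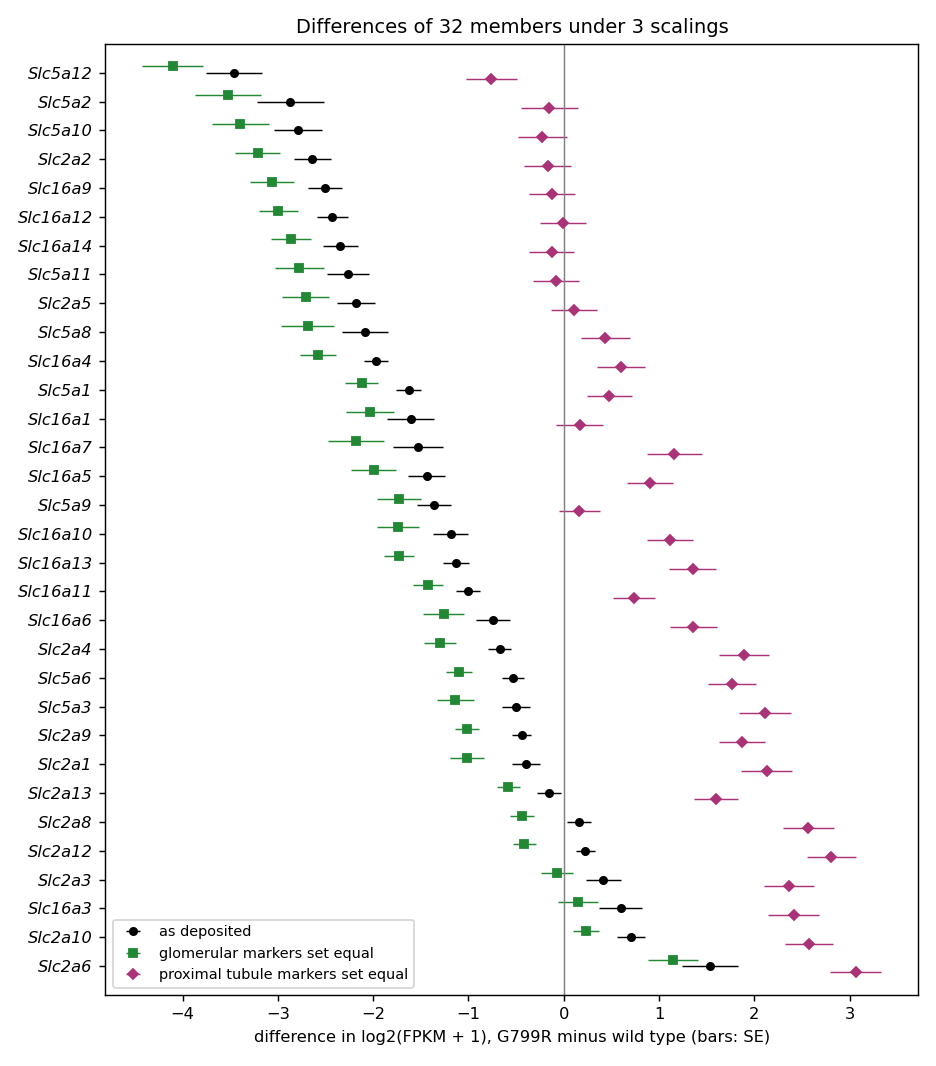
Log2 differences (G799R minus wild type, bars SE) of 32 tested members as deposited (black), with glomerular markers set equal (green) and with proximal tubule markers set equal (purple). With proximal tubule markers set equal 18 of these members turn from negative to positive, and Slc2a3, Slc2a8 and Slc2a12 turn negative with glomerular markers set equal. Slc5a12 was called lower under all 3 and Slc2a6 higher under all 3. With proximal tubule markers set equal 94.9% of all genes were called higher and 0.267% lower.

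The members placed in glomerular cells did not move together. As deposited, where 19.3% of all genes were lower, 2 of the 4 were called lower and 2 were not called, with a median of −0.12. Glomerular marker scaling left 3 of the 4 lower and 1 not called (median −0.73), where 66.7% of all genes were lower. With proximal tubule markers set equal all 4 were higher (median 2.25), where 94.9% of all genes were higher. Of 16 podocyte markers in the same libraries 16 were called higher as deposited (median 0.62), where 40.5% of all genes were higher. Under median-of-ratios scaling 11 were higher (median 0.45), where 23.3% of all genes were higher. Under glomerular marker scaling, which uses these markers, 1 was higher and 4 were lower (median −0.06), where 4.06% and 66.7% of all genes were called. Slc2a4 encodes GLUT4, the carrier that insulin brings to the cell surface, and stood at 9.34 to 13.7 FPKM (median 13.0) in wild type. In G799R it was at 5.89 to 8.46 FPKM (median 7.28), without overlap. The log2 difference was −0.67 ± 0.12 (SE; limma adjusted p = 0.00072), and −1.30 under glomerular marker scaling. It turned to 1.89 with proximal tubule markers set equal.

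Slc2a1 encodes GLUT1, the glucose carrier found in most cell types. It stood at 6.87, 8.84, 12.3, 10.3 and 11.6 FPKM in wild-type libraries 1 to 5 and at 5.53, 8.33, 6.80, 7.51 and 8.10 FPKM in G799R libraries 1 to 5. The groups overlapped, since wild-type library 1 lay among the G799R values. The log2 difference of −0.40 ± 0.15 (SE) was called (limma adjusted p = 0.037). This call was lost with no filter on low values (adjusted p = 0.057) and in fits without wild-type library 3, 4 or 5 or without G799R library 1, 3 or 4, at −0.41 to −0.32 with adjusted p-values up to 0.089. Without G799R libraries 3 and 4 together it stood at −0.39 (adjusted p = 0.10). Median-of-ratios scaling kept the lower call, at −0.56 (adjusted p = 0.013), as did glomerular marker scaling, at −1.02 (adjusted p = 0.00037). With proximal tubule markers set equal Slc2a1 was called higher, at 2.13.

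Slc2a3, a high-affinity glucose carrier, and Slc2a8, which lies on membranes inside the cell, were not called as deposited. Slc2a3 was at 2.19 ± 0.820 FPKM in wild type and 3.20 ± 0.795 FPKM in G799R (SD, n = 5 each; limma adjusted p = 0.073). It was called higher under quantile normalisation (adjusted p = 0.048), with the replicate number as a block (0.038) and without wild-type library 3 (0.028). Slc2a8 was at 5.99 ± 0.869 and 6.84 ± 1.25 FPKM (adjusted p = 0.28). Under glomerular marker scaling Slc2a3 stood at −0.07 and Slc2a8 at −0.44, and only the second was called, as lower (adjusted p = 0.0084).

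The make-up of the members shifted between groups. Summed over the 39 genes, FPKM was 429 to 657 in wild type and 132 to 164 in G799R. Tubule members held 69.8% to 77.2% of that sum in wild type and 34.5% to 47.5% in G799R, and the members of glomerular cells 4.57% to 6.99% and 14.1% to 21.9%. Slc5a genes went from 47.5% to 52.3% down to 23.3% to 32.1%, and Slc2a genes from 15.0% to 17.7% up to 32.7% to 40.5%. The Slc16a share overlapped, at 32.7% to 35.4% and 29.7% to 36.2%. Among the highest means in wild type were those of Slc5a12, Slc5a2, Slc5a10 and Slc16a7. The ranges of Slc5a12 and Slc5a2 overlapped, as did those of Slc5a10 and Slc16a7. Among the highest in G799R were Slc2a12 (12.6 ± 1.75 FPKM), Slc16a7 (11.3 ± 4.29) and Slc5a2 (10.8 ± 5.24), which did not differ beyond their spread (SD, n = 5 each).

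**Figure D3:**
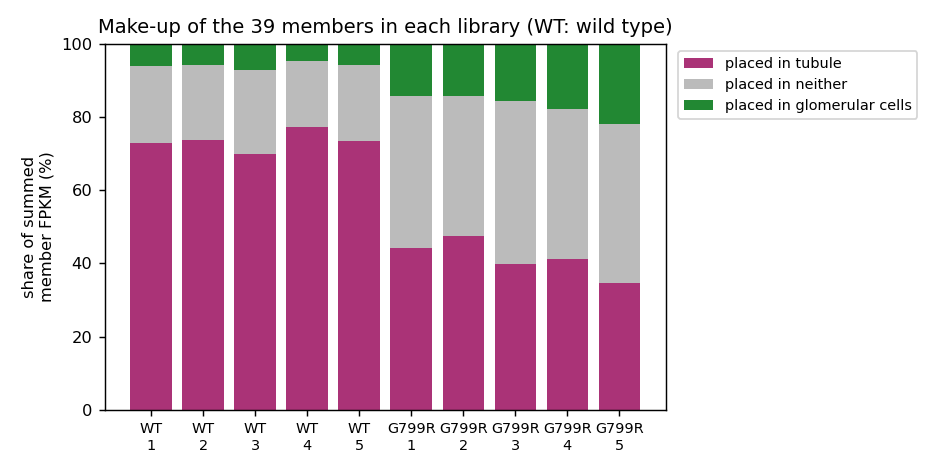
Share of the summed FPKM of the 39 members in each library by placement, as stacked bars that add to 100%. The tubule members hold 69.8% to 77.2% in the 5 wild-type libraries and 34.5% to 47.5% in the 5 G799R libraries.

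Members placed in neither group included the 3 that were called higher. Slc2a6 encodes GLUT6, a carrier held on membranes inside the cell and known from inflammatory macrophages. It lies on chromosome 2 at 27021363 to 27027998. Wild-type libraries 1 to 5 had 0.515, 0.427, 0.871, 0.385 and 0.638 FPKM, and G799R libraries 1 to 5 had 1.55, 4.01, 7.98, 4.66 and 1.87 FPKM. All G799R libraries were above all wild-type libraries, with a wide spread in which library 3 was the highest and library 1 the lowest. The mean was 7.08-fold higher, and the log2 difference was 1.53 ± 0.30 (SE; limma adjusted p = 0.0011).

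Slc2a6 was the only member called higher under glomerular marker scaling, at 1.14 (adjusted p = 0.0022). It was called in all 11 fits that left out libraries under that scaling, at 0.76 to 1.33, with the lowest value without G799R libraries 3 and 4. Immune genes were read in the same libraries. Of 13 macrophage and myeloid markers 7 were called higher and 0 lower as deposited, where 40.5% of all genes were higher. Median-of-ratios scaling called 5 of the 13 markers higher, against 23.3% over the whole set of tested genes. Scaling to the glomerular markers called 4 of the 13 higher, against 4.06% over that whole set. None of the 13 was at 0 in every library, and their summed FPKM was 48.9 to 120 in wild type and 100.5 to 246 in G799R. Their score was 3.81, 3.93, 3.31, 2.81 and 3.43 in G799R libraries 1 to 5, highest in library 2 and lowest in library 4. Slc2a6 was highest in library 3 and lowest in library 1. Irf7, a factor of the interferon response, was chosen here after its values were seen. It was at 73.4, 89.6, 768, 384 and 20.1 FPKM in G799R libraries 1 to 5, highest in library 3 and lowest in library 5. The part of these genes in the rise of Slc2a6 was not tested.

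Slc2a10 encodes GLUT10, whose loss causes arterial tortuosity syndrome, and was at 1.03 to 2.33 FPKM in wild type and 2.70 to 3.79 FPKM in G799R. The groups did not overlap, with a log2 difference of 0.70 ± 0.15 (SE; limma adjusted p = 0.0019). Under glomerular marker scaling it stood at 0.23 and was not called. Slc16a3 encodes MCT4, which exports lactate from glycolytic cells, and had 2.13, 1.64, 2.50, 0.893 and 0.961 FPKM in wild-type libraries 1 to 5. G799R libraries 1 to 5 had 3.09, 2.44, 3.10, 1.60 and 4.69 FPKM. The groups overlapped, and the log2 difference of 0.60 ± 0.23 (SE) had a limma adjusted p of 0.039. That call was lost with no filter, under median-of-ratios scaling, under glomerular marker scaling (0.15) and in fits without wild-type library 2, 4 or 5 or without G799R library 1, 3 or 5 (0.46 to 0.61, adjusted p up to 0.094).

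Slc2a12, which encodes GLUT12, was at 9.68 to 11.7 FPKM in wild type and 10.5 to 14.9 FPKM in G799R and was not called (limma adjusted p = 0.059). Without G799R library 4 or 5 it was called higher (adjusted p = 0.024 and 0.046), whereas glomerular marker scaling turned it to −0.41, a lower call (adjusted p = 0.0087). Slc2a13, a proton-coupled inositol carrier, was at 1.87 ± 0.335 and 1.58 ± 0.355 FPKM (SD, n = 5 each; adjusted p = 0.31), and it was called lower under glomerular marker scaling, at −0.58. Reads of Slc2a12 that lie within Tbpl1, a gene on the opposite strand, cannot be told apart unless strand was used in counting, which the sources used here do not state. The same limit holds for other members, among them Slc5a2 (BC017158), Slc5a6 (Atraid), Slc5a10 (Fam83g and Grap) and Slc16a6 (Amz2 and Arsg). Opposite-strand genes also overlap Slc2a1, Slc2a2, Slc5a1, Slc16a5, Slc16a7, Slc16a9, Slc16a10 and Slc16a12, among others.

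**Figure D4:**
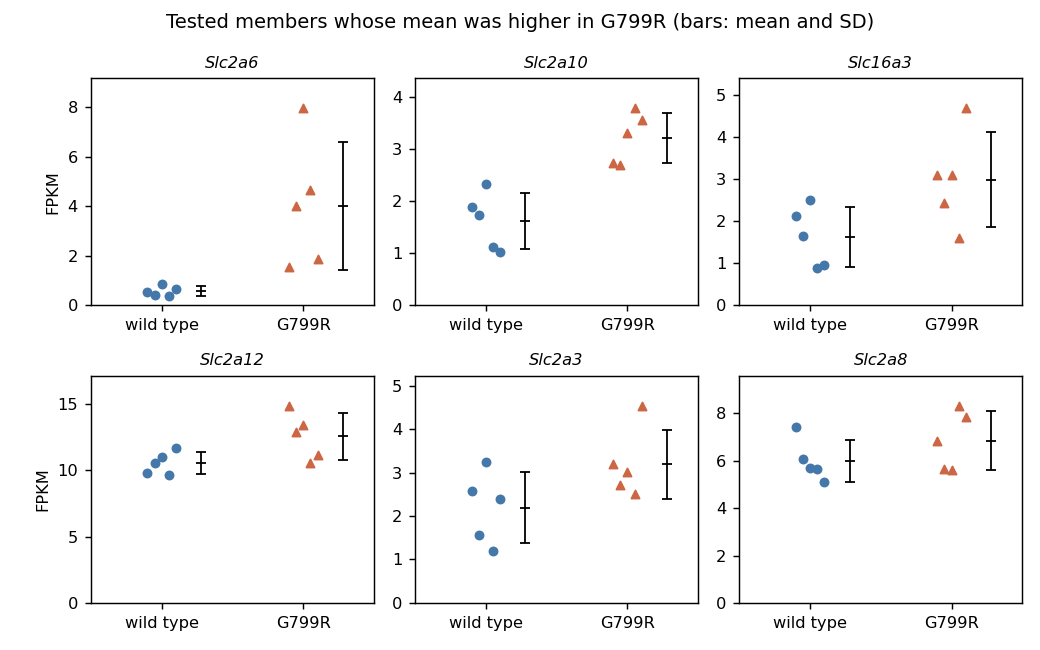
FPKM in each library (circles wild type, triangles G799R) for the 6 tested members whose mean was higher in G799R, with the mean and SD beside each group. As deposited, Slc2a6 and Slc2a10 do not overlap between groups, and Slc2a12, Slc2a3 and Slc2a8 were not called. Under glomerular marker scaling Slc2a6 alone was called higher, and Slc2a12, Slc2a3 and Slc2a8 turned negative.

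The remaining 9 tested genes placed in neither group were lower as deposited. Slc16a1 encodes MCT1, a lactate and pyruvate carrier of many cell types. Wild-type libraries 1 to 5 had 2.20, 4.42, 5.71, 4.48 and 6.39 FPKM, and G799R libraries 1 to 5 had 0.362, 1.56, 1.06, 0.972 and 0.282 FPKM. The groups did not overlap, with G799R libraries 1 and 5 lowest and a log2 difference of −1.60 ± 0.25 (SE; limma adjusted p = 0.00026). With proximal tubule markers set equal it stood at 0.17 and was not called.

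Slc5a9, which encodes SGLT4, fell by 6.11-fold, Slc16a5 by 3.38-fold and Slc16a11 by 3.09-fold. Slc16a13, the neighbour of Slc16a11 on chromosome 11, fell by 2.41-fold and Slc16a6 by 2.03-fold. The smallest falls were those of Slc5a6, a carrier of biotin and pantothenate, and Slc5a3. Slc5a6 was 1.55-fold lower, at 5.14 to 5.94 FPKM against 2.54 to 4.68 FPKM. Slc5a3 encodes SMIT1, which takes up inositol as an osmolyte, and was 1.47-fold lower with overlapping groups (limma adjusted p = 0.013), a call that was lost without G799R libraries 3 and 4 together (adjusted p = 0.085). Slc5a3 shares its locus and strand with Mrps6, so its value is uncertain. With proximal tubule markers set equal these 9 genes stood at 0.16 to 2.11, and all were positive. Of the 9, 7 were called higher, where 94.9% of all genes were higher.

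Ratios of a pair of genes within a library do not depend on how that library is scaled, apart from the pseudocount. They can still move with the tubule content of a library, and the part of that content was not tested. The ratios use the same values as the differences above and are not separate support for them. For 6 pairs the ratio was compared between groups with an exact two-sided permutation test on log2(FPKM + 1), adjusted over the 6 pairs. With 5 against 5 libraries the smallest possible p is 0.0079. Slc2a2 over Slc2a1, the tubule's exit carrier for glucose against the widespread one, was 1.39 to 3.03 in wild type and 0.204 to 0.536 in G799R. The groups did not overlap, and the log2 ratio fell by 2.24 (exact p = 0.0079, adjusted p = 0.016). Slc16a1 over Slc16a3, MCT1 against MCT4, was 1.03 to 6.65 in wild type and 0.0601 to 0.638 in G799R. This log2 ratio fell by 2.20 (exact p = 0.0079, adjusted p = 0.016), and by 3.56 without the pseudocount.

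Slc5a12 over Slc5a8, the low-affinity against the high-affinity sodium lactate carrier, compares a pair of tubule members. The ratio was 4.40, 3.48, 5.39, 4.78 and 6.06 in wild-type libraries 1 to 5 and 3.13, 2.32, 0.934, 3.56 and 1.17 in G799R libraries 1 to 5. The groups overlapped by 1 library each, and G799R libraries 3 and 5 lay apart from the other 3 of their group. The log2 ratio fell by 1.37, from 2.19 ± 0.291 to 0.81 ± 0.732 (SD, n = 5 each; exact p = 0.0079, adjusted p = 0.016). Without the pseudocount it fell by 1.28 (exact p = 0.016, adjusted p = 0.032).

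Slc5a2 over Slc5a1, the glucose carriers of the early and late proximal tubule, was 6.45 to 22.8 in wild type and 3.15 to 13.3 in G799R. The log2 ratio differed by −1.24 (exact p = 0.048, adjusted p = 0.071), and by −0.80 without the pseudocount (adjusted p = 0.25). Slc5a2 over Pdzk1ip1, which encodes MAP17, the accessory protein that SGLT2 needs for activity, differed by −0.48 (exact p = 0.25, adjusted p = 0.30). Slc5a2 over Slc2a2, entry against exit of glucose, was 2.54 to 6.13 in wild type and 2.52 to 5.25 in G799R. Its log2 ratio differed by −0.23 (exact p = 0.48), and by 0.04 without the pseudocount. In wild-type library 1 this ratio was 6.13, with high Slc5a2 beside the lowest Slc2a2 of the group.

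**Figure D5:**
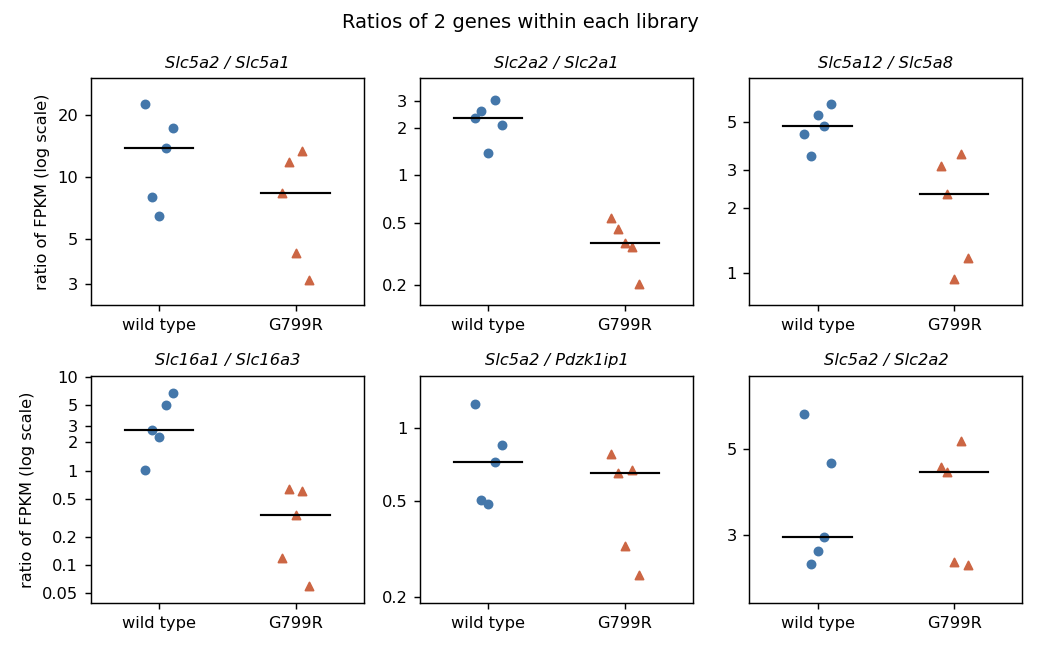
Ratio of the FPKM of 2 genes in each library on log axes, with circles for wild type, triangles for G799R and lines at the group medians. The groups are apart for Slc2a2 over Slc2a1 and Slc16a1 over Slc16a3, nearly apart for Slc5a12 over Slc5a8, and overlap for the 3 ratios with Slc5a2.

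Other genes of the same pathways were read from 3 lists. Of 9 partners and regulators of the carriers 6 were lower and 3 higher as deposited, against 19.3% and 40.5% of all tested genes. Their median log2 difference was −1.43. Pdzk1ip1 fell by 5.50-fold and Pdzk1, a scaffold of the brush border, by 7.29-fold. Hnf4a, a transcription factor of the proximal tubule that is also in the list of its markers, fell by 7.56-fold. The 3 higher genes, named after their values were seen, were Sgk1, Txnip and Arrdc4, at 1.53-fold, 1.47-fold and 1.59-fold. TXNIP and ARRDC4 are arrestin-like proteins that hold back glucose uptake. Under glomerular marker scaling these 3 turned to −0.07, −0.13 and −0.06 and none was called.

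Among 17 tested enzymes of the carried substrates 13 were lower and 1 higher, against 19.3% and 40.5% of all tested genes. Their median was −1.42, while Hk2 and Hk3 were under the filter. Gatm, which starts creatine synthesis, fell by 7.73-fold, Ldhb, a lactate dehydrogenase subunit, by 5.13-fold, and Oxct1, which activates ketone bodies, by 2.71-fold. The higher gene, named after its values were seen, was Isyna1, which makes inositol from glucose 6-phosphate. It was 1.46-fold higher as deposited and stood at −0.15 under glomerular marker scaling, where it was not called.

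In the list of 13 other carriers of sugars, urate and lactate 10 were lower and 1 higher, against 19.3% and 40.5% of all tested genes. Their median was −1.53. Mfsd4b5, a relative of the sodium glucose carrier Mfsd4b, fell by 6.60-fold and Abcg2, a urate exporter, by 2.96-fold. Mpc1 and Mpc2, which form the mitochondrial pyruvate carrier, fell by 2.56-fold and 2.36-fold. Slc50a1, a sugar carrier of the SWEET family named after its values were seen, was 1.33-fold higher as deposited and was called lower under glomerular marker scaling, at −0.26. The proximal tubule score was lower by 2.57 in the same G799R libraries.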

How the data were processed

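RNA-seq was made from glomeruli in 5 wild-type and 5 G799R libraries. The authors deposited 1 table of FPKM values for 22053 Ensembl genes. The tools named, per the submitters' processing notes and without roles, are StringTie 1.3.1, RSEM, HISAT2, Bowtie2 2.2.8 and fastp 0.18.0, and the build is not given in the sources used here. Symbols matched 21963 identifiers. Positions are from GENCODE M21 (GRCm38), which may not be the authors' build. Column sums were 320720 to 340875 FPKM. Absolute depth is unknown, and relative depth, estimated from the steps of values under 0.3 FPKM, was 0.859 to 1.20 times that of wild-type library 1.

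FPKM was transformed to log2(FPKM + 1), and limma-trend (limma 3.58.1, R 4.3.3) was run two-sided on the 13117 genes averaging 0.5 FPKM or more. P-values were adjusted by Benjamini-Hochberg and called under 0.05. Marker scalings divided FPKM by the median ratio of the markers to their geometric mean over libraries. On simulated data over 13117 genes, recovery was 48.4% for 64 genes changed 1.5-fold, 71.0% for 69 at 2-fold and 94.0% for 67 at 4-fold. There were 4 false calls among 147. The simulation kept the group sizes and spreads of this comparison, but only these genes were changed and tubule content did not shift. In the data 59.8% of tested genes were called, so these rates may not carry over. The rule named every tested member and, of each pathway list, the 4 genes with the smallest p. Of these, 1 member and 2 pathway genes are not reported here, though they remain in the counts, medians and sums. Members, lists and placements were chosen with earlier results of these data known. Alternatives were pseudocounts, filters, scalings, a robust fit, a replicate block and left-out libraries. Ratios without a pseudocount and the left-out fits of Slc5a12 and Slc2a6 under marker scaling were chosen after seeing the data. Same-numbered libraries did not deviate together, so the numbers were not treated as pairs.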

Additional observations from a re-analysis of the deposited data

Results flagged for a closer look

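In 78 groups of 5 libraries, 4 had a lowest library far from the others, with a gap over 0.71 of the group's range, and chance gives this in about 1 in 20 groups. All 4 were wild-type library 1, for Slc16a6 (2.29 FPKM), Slc5a1 (4.31 FPKM), Slc5a10 (14.9 FPKM) and Slc5a11 (5.83 FPKM). That library also had the lowest proximal tubule score of its group, at 6.69 against 6.78 to 7.44, while Slc5a2 stood there at 98.0 FPKM, the second highest wild-type value. Leaving it out changed no call among the 33 tested members.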

How the results depend on the processing

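Pseudocounts of 0.1 and 0.5 and the robust fit changed no call of the 33 tested members. Over all genes 5308 were called higher and 2537 lower. The higher count was 3055 under median-of-ratios scaling, 533 under glomerular and 12449 under proximal tubule marker scaling, and the lower count was 3346, 8751 and 35 under these scalings. Among the members, 1 was higher under glomerular marker scaling, and 21 were higher and 1 lower under proximal tubule marker scaling. Glomerular marker scaling reversed Slc2a3 (−0.070), Slc2a8 (−0.44) and Slc2a12 (−0.41). Proximal tubule marker scaling reversed Slc16a1 (0.17), Slc16a4 (0.60), Slc16a5 (0.90), Slc16a6 (1.36), Slc16a7 (1.16), Slc16a10 (1.12), Slc16a11 (0.74), Slc16a13 (1.35), Slc2a1 (2.13), Slc2a4 (1.89), Slc2a5 (0.11), Slc2a9 (1.87), Slc2a13 (1.60), Slc5a1 (0.48), Slc5a3 (2.11), Slc5a6 (1.76), Slc5a8 (0.44) and Slc5a9 (0.16). These scalings shift every gene by construction. The cause was not tested beyond that.

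With 1 library left out, 2 to 4 members were called higher and 25 to 26 lower, and over all genes 4614 to 5580 were higher and 2396 to 2585 lower. The ratio of Slc5a2 to Slc2a2 reversed to 0.0040 with a pseudocount of 0.1 and to 0.038 with none. With the replicate number as a block, Slc2a3 was called in addition, and the sign-flip test of the 5 pairs cannot go below 0.0625. The ratios Slc2a2 over Slc2a1 (−2.24), Slc5a12 over Slc5a8 (−1.37) and Slc16a1 over Slc16a3 (−2.20) then had an adjusted p of 0.125. Correlations of same-numbered libraries were −0.0846 to 0.0484, and 0 of 5 wild-type libraries correlated best with their own number. Such correlations cannot show whether same-numbered libraries were prepared together.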
